A study of Drosophila melanogaster with 2 samples.

Results

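The genes described here are 10 core members of the Drosophila piRNA pathway, piwi, aub, AGO3, vas, tej, krimp, spn-E, qin, zuc and rhi, of 13945 protein-coding genes on the 6 main chromosome arms. They were chosen by name, all 10 were found in the Ensembl annotation of the dm6 genome, and the rule that names them uses no measured value, although the set was proposed with earlier results of these data known. The assay was ChIP-seq for Dp in whole embryos of both sexes, 0 to 24 hours after laying, from a transgenic Drosophila melanogaster line in which Dp carries GFP at its C-terminus. There was 1 group with 2 biological replicates, numbered 1 and 3, and no group without the fusion or with altered Dp. The labels name Dp as the target while also describing the libraries as an input control; the data were read here as Dp ChIP, and the labels alone do not settle that point. Whole embryos mix all cell types, so a weak peak from all cells and a strong peak from few cells cannot be told apart.

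piRNAs are small RNAs that guide proteins of the Piwi family to transposon transcripts, chiefly in the germline. In flies, long precursors are transcribed from genomic clusters, exported to perinuclear granules called nuage, cut into piRNAs by an amplification loop between Aub and AGO3 (ping-pong) or by the endonuclease Zuc (phased processing), and loaded into Piwi, which enters the nucleus and silences transposon transcription. Dp is the partner with which the E2F proteins bind DNA; E2f1-Dp is known for activating cell cycle genes, and E2f2-Dp is part of the dREAM complex, which is known for repressing developmental and germline genes in somatic cells.

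A gene was counted when at least 1 of its annotated starts had the summit of a peak, the base of highest signal in it, no more than 500 bp away. The peak list that the authors thresholded by reproducibility between replicates held 5828 summits. By that list, 6 of the 10 members carried a Dp summit at a start, namely tej, krimp, zuc, spn-E, piwi and vas, and 4 did not, namely aub, rhi, AGO3 and qin. Of all protein-coding genes, 42.2% carried such a summit, so with 10 members the count stands not far above the background. In the relaxed list of both replicates pooled, which holds 30000 peaks and reaches into background, 7 of the 10 members had a start summit, against 60.3% of all genes. In both replicates' own relaxed lists the count was 7 of 10, against 56.3% of all genes. The additional member in both relaxed counts was aub. The members with a summit differed widely in signal: the highest value was 43 times the lowest.

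The sequences just upstream of the starts show what lies under or beside these summits. They are from the dm6 genome, run 5′ to 3′ on the strand of the gene, and end at the base before its outermost start; capitals mark a match to a DRE (TATCGATA, the element of the factor Dref) or to a CHR (TTTGAA or TTCGAA, an element known from cell cycle promoters). The first pair shows members with a start summit, the second pair members without one, and the last is the whole gap between the starts of zuc and its divergent neighbour dgt2.
spn-E (chr3R:15837219-15837418, plus strand): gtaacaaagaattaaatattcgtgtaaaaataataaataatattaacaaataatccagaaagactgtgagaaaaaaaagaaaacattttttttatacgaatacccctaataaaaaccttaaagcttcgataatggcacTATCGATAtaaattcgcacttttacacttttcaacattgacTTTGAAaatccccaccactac
piwi (chr2L:10987421-10987620, minus strand): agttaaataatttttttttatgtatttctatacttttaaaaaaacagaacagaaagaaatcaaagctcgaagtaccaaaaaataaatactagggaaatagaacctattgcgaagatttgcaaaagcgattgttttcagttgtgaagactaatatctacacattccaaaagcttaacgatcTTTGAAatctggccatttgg
qin (chr3R:18590827-18591026, plus strand): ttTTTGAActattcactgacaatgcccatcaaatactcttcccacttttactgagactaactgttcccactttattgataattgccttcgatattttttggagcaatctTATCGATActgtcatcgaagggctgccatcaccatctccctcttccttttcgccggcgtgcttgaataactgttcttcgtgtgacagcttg
AGO3 (chr3L:23554393-23554592, plus strand): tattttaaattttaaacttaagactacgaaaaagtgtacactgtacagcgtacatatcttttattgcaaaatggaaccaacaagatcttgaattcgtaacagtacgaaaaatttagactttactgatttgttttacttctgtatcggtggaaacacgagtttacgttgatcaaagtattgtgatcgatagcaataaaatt
zuc (chr2L:11989883-11989935, minus strand): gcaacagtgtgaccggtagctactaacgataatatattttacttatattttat
In spn-E the DRE began 62 bases and the CHR 21 bases before the start. In piwi a CHR began 20 bases before the start. The qin stretch held both elements as well, with the DRE 91 and the CHR 198 bases before the start, although no list but that of replicate 1 had a peak anywhere in the qin window. The AGO3 stretch and the zuc gap held neither element. No stretch of 200 bases upstream of a member's start held an E2F core (TTCCCGC or TTCGCGC or TTGCCGC or TTGGCGC, on either strand), against 9.57% of all protein-coding genes.

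**Figure D1:**
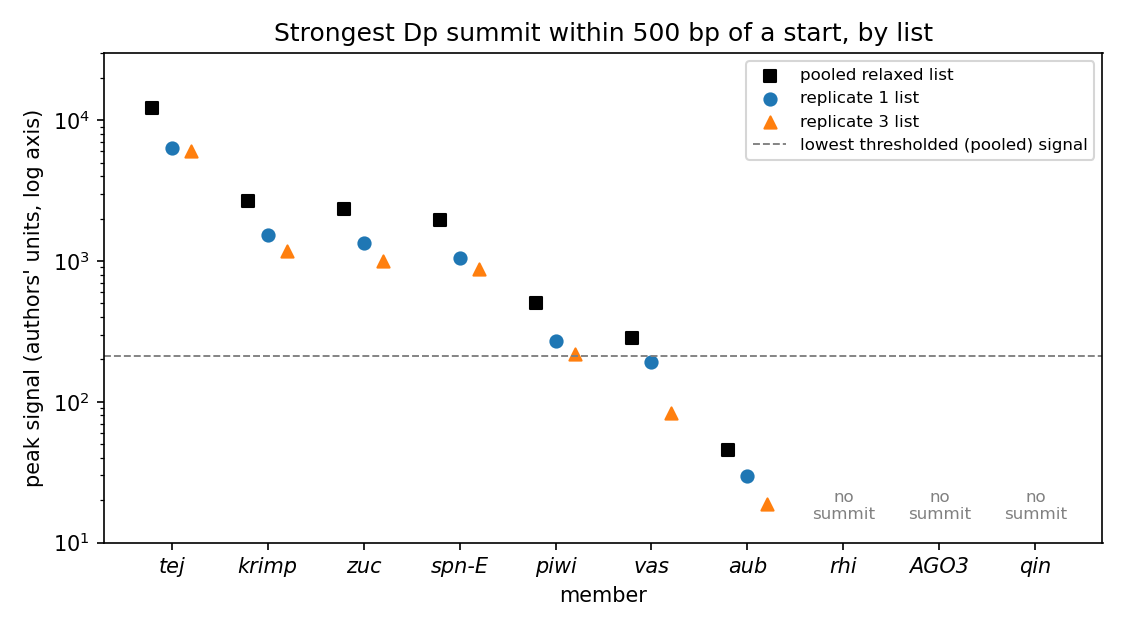
Strongest Dp peak signal (authors' units, log axis) with its summit within 500 bp of a start of each member, in the pooled relaxed list (squares), replicate 1 (circles) and replicate 3 (triangles). The dashed line is the lowest pooled signal in the thresholded list, 213, and applies to the squares only. The square of aub lies below it, tej stands highest in each list, and rhi, AGO3 and qin have no start summit in any list. The vas points of replicate 1 (191) and replicate 3 (82.8) also fall below the line, on the scale of their own lists.

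The Tudor-domain proteins of nuage, which bind methylated arginines of Piwi-family proteins and hold the granule together, held both the highest signal of the set and a gene with no peak in 3 of the 4 lists. For tej, which recruits Vas to nuage, the signal was 12251 in the thresholded list, 6294 in replicate 1 and 6054 in replicate 3. This was the second strongest of all 5828 peaks, 19.2 times the median peak of 639, and it ranked 3 in replicate 1 and 2 in replicate 3. It was 4.56 times the next member. The peak spanned chr2R:14302228-14303322 (1095 bp) and covered the tej start, but its summit lay 489 bp upstream, in intergenic sequence, just inside the 500 bp limit and at exactly 500 bp in replicate 1. With a limit of 250 bp tej was not counted. No other gene's start was near: the closest was that of Shrm, 5300 bp from the summit. An E2F core lay 3 bp from the tej summit and a DRE 43 bp from it.

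For krimp, which brings Aub and AGO3 together, the signal was 2686 in the thresholded list (rank 876), 1527 in replicate 1 and 1172 in replicate 3. The peak, chr2R:16240406-16241069, had its summit 47 bp upstream of the krimp start, and the nearest other start, that of CG15708, lay 1165 bp away. Its signal was 4.21 times the median peak, and 85% of thresholded peaks were weaker. A CHR lay 53 bp from the summit.

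For qin, a Tudor protein with a RING domain that favours ping-pong between Aub and AGO3 over Aub with itself, the thresholded, pooled and replicate 3 lists had no summit from 5 kb upstream to 5 kb downstream of the gene (chr3R:18591027-18650137, plus strand, 59111 bp). The nearest thresholded summit to a qin start was 6784 bp away. Replicate 1 alone had 2 peaks inside the gene. The stronger, chr3R:18621221-18621531 with a signal of 265 (rank 3554 in that list), lay in a qin intron 38 bp from the start of the nested gene CG14304 and 30338 bp from the qin start. The weaker, with a signal of 56.5, lay 129 bp from the start of a nested proline tRNA gene. Neither was at a qin start. Among the 5828 strongest peaks of replicate 1, 9 had no pooled summit within 1 kb, and the stronger qin peak was the strongest of these.

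The helicases of nuage both carried a start summit, at very different levels. For spn-E, a helicase with a Tudor domain needed for ping-pong, the signal was 1939 in the thresholded list (rank 1220), 1051 in replicate 1 and 884 in replicate 3. Its summit lay 3 bp downstream of the start, in the 5′ UTR, and the peak, chr3R:15836890-15837809, also held the start of ND-23, a respiratory complex I gene, 305 bp from the summit. The signal was 3.04 times the median peak. It was the only member with all of the 3 motifs within 100 bp of the summit: an E2F core at 17 bp, a CHR at 21 bp and a DRE at 61 bp. A still stronger summit, with a signal of 3154, lay in a spn-E intron 16 bp from the start of Pbp45, which encodes a subunit of the complex that activates small nuclear RNA genes.

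For vas, the DEAD-box helicase that marks germ cells and feeds transcripts into ping-pong, the signal was 285 in the thresholded list (rank 4992), 191 in replicate 1 and 82.8 in replicate 3. This was the lowest of the 6 and 0.447 times the median peak, and 14.3% of thresholded peaks were weaker. The summit lay 40 bp upstream of a start that vas shares with solo, a meiotic cohesion gene, so the peak, chr2L:15061394-15061831, cannot be given to vas alone. The replicates stood further apart here than at the other members, with a log2 ratio of replicate 3 over replicate 1 of -1.21. Over 5821 thresholded peaks the median was -0.18 and the SD 0.48, so vas lay 2.15 SD from that median. That SD takes in peaks of all signal levels, and the spread among peaks as weak as this was not computed. The peak ranked 4385 in replicate 1 and 7186 in replicate 3, so with the 5828 strongest peaks of replicate 3 alone vas was not counted.

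The E2F cores of vas and spn-E both lay downstream of the start, in the 5′ UTR, and are shown with 10 bases to either side on the strand of the gene, the core in capitals.
vas (chr2L:15061692-15061718, plus strand): gttttgcgttGCGCGAAgtgatctgaa
spn-E (chr3R:15837426-15837452, plus strand): agtttaacttTTCCCGCtacgcggaat
The vas core began 46 bases after the start, and its middle lay 89 bp from the summit, near the edge of the window searched. The spn-E core began 17 bases after the start.

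**Figure D2:**
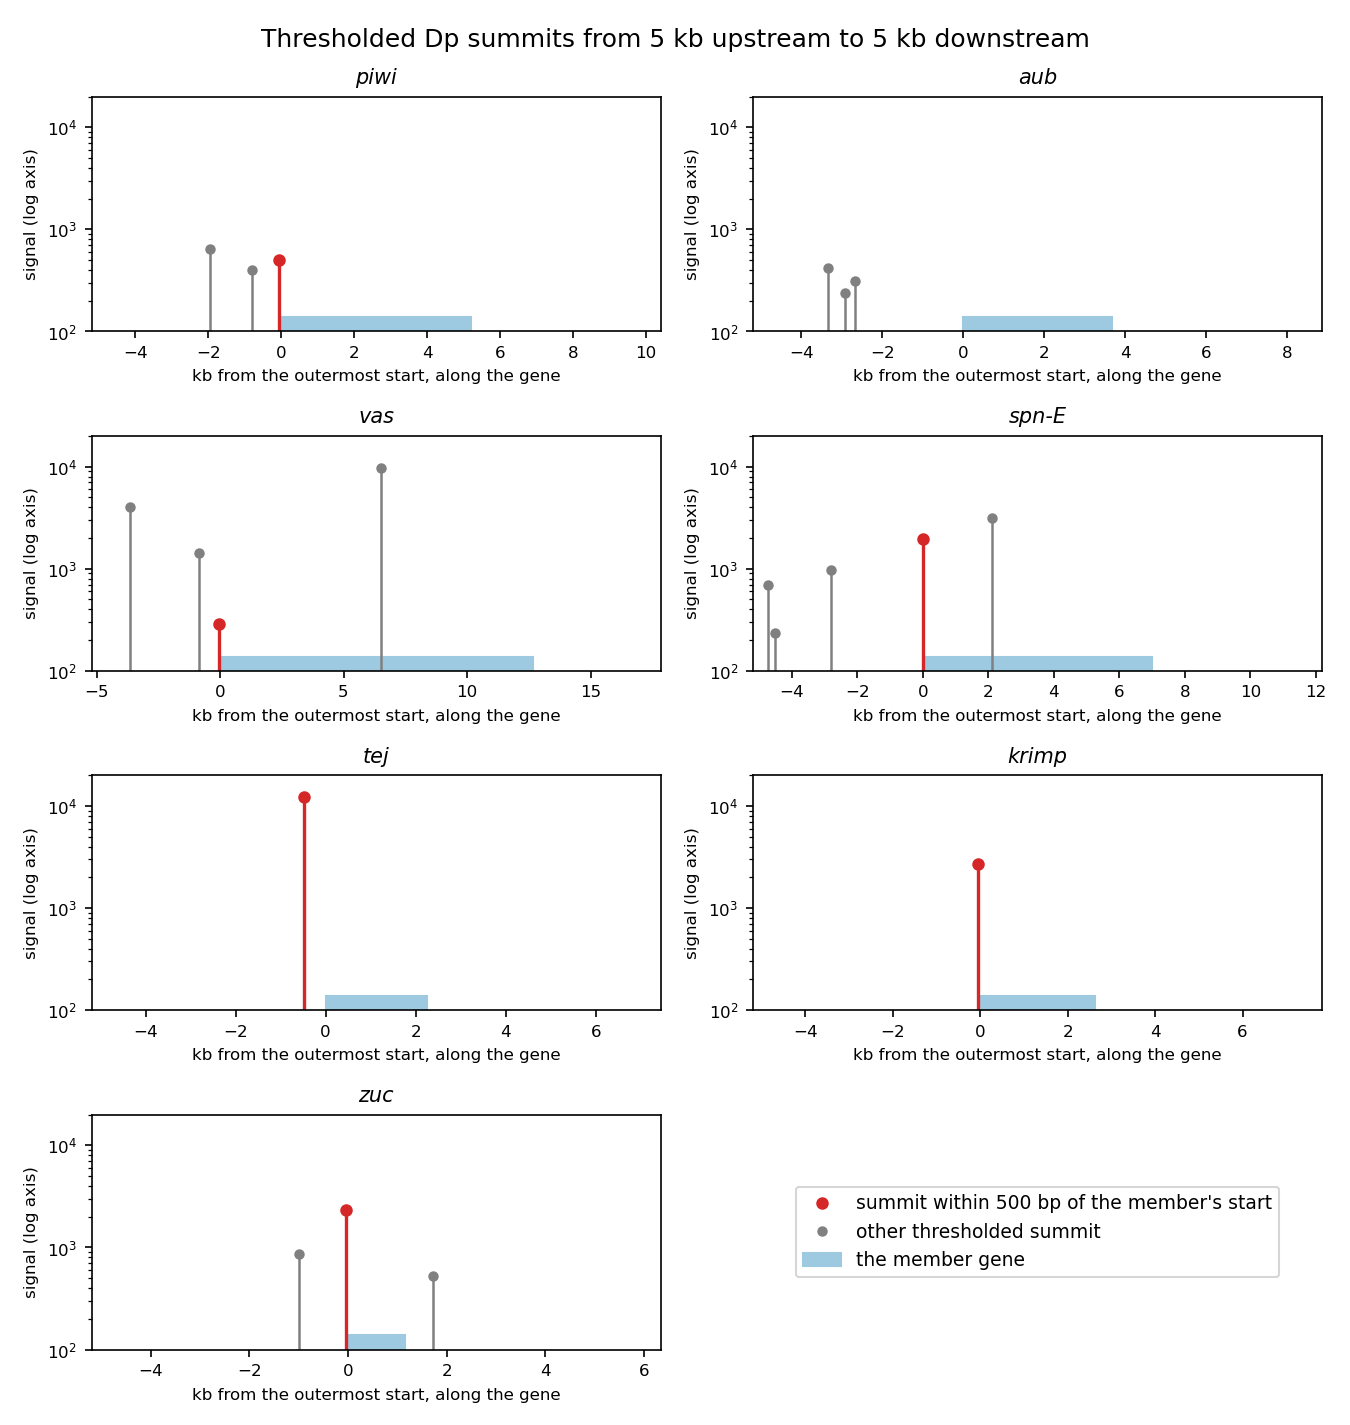
Thresholded Dp summits from 5 kb upstream to 5 kb downstream of the 7 members with any, by distance in kb from the outermost start along the gene (x axis) and signal in the authors' units (y axis, log). Red marks summits within 500 bp of the member's start, grey the others, and the blue bar the gene; tej and krimp have only their start summit, aub has only summits at its neighbours, and the strongest summit in the vas window, 9780, lies inside the gene.

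Of the Piwi-family proteins, which carry the piRNAs, only piwi itself had a thresholded start summit, and it was a weak one. For piwi, the nuclear silencing protein, the signal was 503 in the thresholded list (rank 3504), 269 in replicate 1 and 219 in replicate 3. The summit lay 48 bp upstream of the start, in intergenic sequence, and the nearest other start was that of CG12253, 338 bp away. The peak, chr2L:10987216-10987671, reached 0.787 times the median peak, with 39.9% of thresholded peaks weaker. Within 100 bp of the summit there were 2 CHRs, at 30 and 74 bp, the nearer of them the capitals in the piwi stretch above. Of the 6 members, piwi had the transposon annotation nearest to its summit, an INE-1 remnant at 669 bp; at the other 5 the nearest was 19867 to 84120 bp away.

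For aub, the cytoplasmic slicer of sense transposon transcripts, the start had only weak peaks outside the thresholded list. Its strongest start signal was 45.1 in the pooled list (rank 16779 of 30000, −log10 q of 1.13), 29.9 in replicate 1 and 18.8 in replicate 3. The gene has 2 starts: the pooled and replicate 3 summits lay 169 and 22 bp upstream of the inner start, and the replicate 1 summit 153 bp downstream of the outer start. The nearest thresholded summit to an aub start was 2675 bp away, at the ribosomal protein gene RpL9.

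For AGO3, the ping-pong partner of Aub, there was no summit in any of the 4 lists within 5 kb of the gene (chr3L:23554593-23689640, plus strand, 135048 bp). The nearest was 538659 bp from a start, in both the thresholded and the pooled list. The surroundings held few peaks as well: past 23 Mb on 3L, a stretch chosen after the AGO3 values were seen, 0 of 36 protein-coding genes had a thresholded start summit, against 1136 of 2739 (41.5%) on all of 3L. The lists held 2 of 1111 thresholded peaks of that arm there, 2 of 6098 pooled, 4 of 6127 in replicate 1 and 2 of 6025 in replicate 3. The absence of peaks at AGO3 was shared with the stretch that holds it, and the gene and the stretch cannot be told apart here.

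At the ends of the pathway, zuc and rhi differed. For zuc, the mitochondrial endonuclease that makes phased piRNA ends, the signal was 2327 in the thresholded list (rank 1021), 1331 in replicate 1 and 1006 in replicate 3. The summit lay in the gap shown above, 32 bp from the zuc start and 22 bp from the start of dgt2, which encodes a subunit of the augmin complex of the spindle, and the peak, chr2L:11989522-11990376, held both starts. With each thresholded summit given to its nearest start only, zuc was not counted. The replicates differed in this: the replicate 1 summit lay 45 bp from the zuc start and 9 bp from that of dgt2. In replicate 3 the summit lay 4 bp from the zuc start, in its 5′ UTR, and 58 bp from that of dgt2. There were 2 CHRs within 100 bp of the thresholded summit, at 62 and 85 bp, both outside the gap. For rhi, the HP1 relative that marks clusters transcribed from both strands, no list had a start summit. The closest pooled summit lay 776 bp from the rhi start, with a signal of 29.9 (rank 26380 of 30000), and was 125 bp from the start of Oxp. The closest thresholded summit was 31983 bp away.

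Across the 6 members with a start summit, the median signal was 2133, against 736 over the 5891 genes with such a summit, and 4 of the 6 stood above 736. All 6 peaks covered a start of their member, against 88% of peaks over all genes with a start summit. In 3 of the 6, namely spn-E, vas and zuc, the peak also held another gene's start, against 53.3% over all such genes. An E2F core lay within 100 bp of the summit in 3 of the 6 (tej, spn-E and vas), against 18.9% of all thresholded summits. A DRE did so in 2 (tej and spn-E), against 14.5%, and a CHR in 4 (spn-E, piwi, krimp and zuc), against 49.3%. In the 200 bases upstream of the start, a DRE was found in 3 of the 10 members (spn-E, tej and qin), against 7.29% of all genes, and a CHR in 6 (piwi, aub, spn-E, krimp, qin and zuc), against 36.6%. These matches are descriptions of the sequence, and counts this small allow no reading of a difference from all summits.

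**Figure D3:**
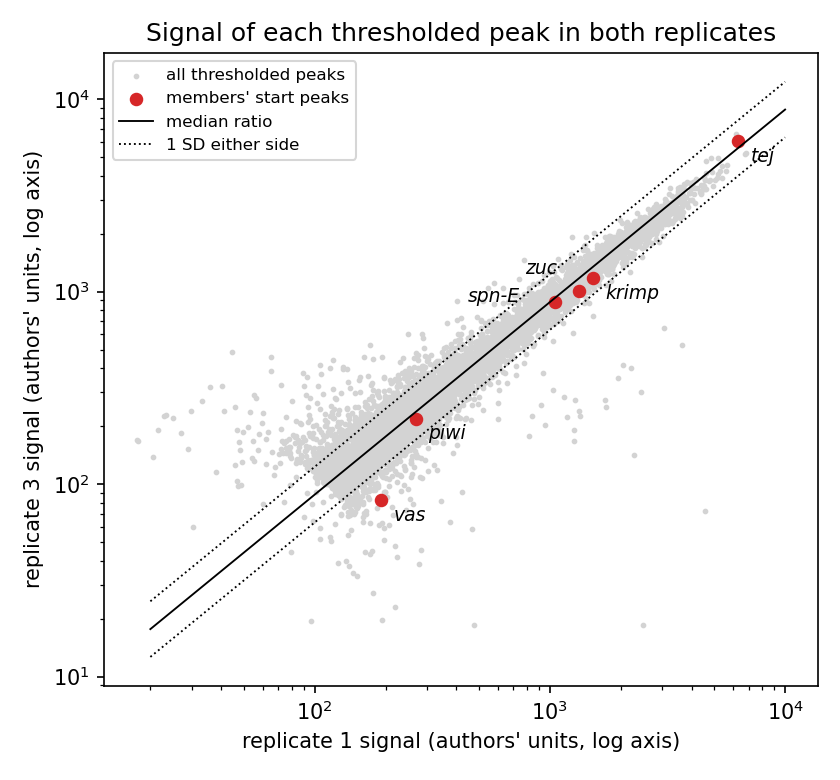
Signal of every thresholded peak in replicate 1 (x axis) and replicate 3 (y axis), both in the authors' units on log axes; red points are the start peaks of the 6 members. The solid line is the median ratio and the dotted lines lie 1 SD to either side; vas falls below the band and the other 5 members lie inside it.

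The replicates placed the other 5 start peaks alike. The log2 ratio of replicate 3 over replicate 1 was -0.06 at tej, -0.25 at spn-E, -0.30 at piwi, -0.38 at krimp and -0.40 at zuc, all within 0.471 SD of the median over all peaks. The summit nearest to the thresholded one moved by 0 to 13 bp in replicate 1 and by 1 to 50 bp in replicate 3 over all 6 members, with the largest shift at piwi. In the thresholded list the order was tej, krimp, zuc, spn-E, piwi, vas, and both replicates gave the same order. On the log2 scale of the thresholded signal, the step from krimp to zuc was 0.21 and that from zuc to spn-E 0.26, both smaller than the SD of the replicate ratio over all peaks (0.48). Within the replicates these steps kept their sign: krimp over zuc was 0.20 in replicate 1 and 0.22 in replicate 3, and zuc over spn-E was 0.34 in replicate 1 and 0.19 in replicate 3. The steps from tej to krimp (2.19), from spn-E to piwi (1.95) and from piwi to vas (0.82) were larger than that SD. In replicates 1 and 3, tej over krimp was 2.04 and 2.37, and spn-E over piwi was 1.97 and 2.01. The step from piwi to vas was uneven, at 0.49 in replicate 1, about the size of that SD, and 1.40 in replicate 3. That SD spans peaks of all signal levels. It also includes pairs in which the same replicate peak was matched to neighbouring thresholded summits. It is therefore no measure of the spread at strong peaks alone, which was not computed. Nor is it the error of a step from one peak to another, since it describes the replicate ratio at single peaks. A step smaller or larger than it is thus not shown to be unresolved or resolved. No test of these differences was made.

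Most thresholded summits near these genes lay nearer the start of a neighbouring gene. The windows from 5 kb upstream to 5 kb downstream of the 10 members held 20 thresholded summits, of which 6 were at a member's start. Each of the other 14 lay within 500 bp of another gene's start. Of all 20, 15 were nearer another gene's start, 1 was as near, and 4 were nearest the member's own (tej, krimp, spn-E and piwi). In 3 members a summit at a neighbour's start was stronger than the member's own, 5 such summits in all. The same shares around all genes were not computed, so these counts cannot be read as particular to the 10 members. In the vas window, the summit at vig, a gene nested in a vas intron, had a signal of 9780 and ranked 8 of 5828. It lay 75 bp from the vig start and 6497 bp from the vas start. Also in the vas window, the summit at ck, which encodes a myosin, had a signal of 3986 and that at TfIIS, a transcription elongation factor gene, 1418. Next to piwi, the summit at TTLL4A had a signal of 636 and that at CG12253 one of 404. The aub window held 3 summits, at RpL9 (312 and 239) and at the nucleoporin gene Nup154 (421).

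The remaining genes of the pathway were taken from a list of 40 others with a known part in it, of which 39 were matched to the annotation. Of these 39, 28 (71.8%) carried a thresholded start summit, against 42.2% of all protein-coding genes. In 20 of the 28 the gene's own start was the nearest of any gene, and in 8 another gene's was nearer. Counting nearest starts only gave 20 of 39, against 32.6% of all genes. Both replicates' relaxed lists had a start summit for 34 of the 39, against 56.3% of all genes. The median signal of the 28 was 848, with a range of 242 to 6076, and 15 of them stood above the 736 of all genes with a start summit.

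Genes for phased processing and loading had the highest median signal of the 4 roles. In that role 9 of 11 carried a start summit, against 42.2% of all protein-coding genes. The median signal of the 9 was 2127. With 8 to 11 genes in each role, the counts and medians allow no reading of a difference between roles. The highest was shu, a co-chaperone gene for loading Piwi-family proteins, at 6076 (rank 102), with 3088 in replicate 1 and 3017 in replicate 3. It was followed by the chaperone gene Hsp83 at 4156, Hen1, the methyltransferase of piRNA 3′ ends, at 3664, and vret, a Tudor protein gene, at 2503. The genes daed and Nbr had none within the limit, and the nearest summit to Nbr, the exonuclease that trims piRNA 3′ ends, was 511 bp away.

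In nuclear silencing, the step in which Piwi recruits chromatin modifiers, 8 of 10 carried a start summit, against 42.2% of all genes. The median signal of the 8 was 790. The highest were egg, a histone H3 lysine methyltransferase gene, at 1566, Su(var)3-3, a histone demethylase gene, at 1347, Su(var)205, which encodes HP1a, at 1104, and arx, a Piwi cofactor gene, at 997. For Su(var)205 and arx another gene's start was nearer. The genes nxf2 and wde had none within 500 bp, with the nearest summits 989 and 541 bp away.

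In ping-pong and nuage, 5 of 8 carried a start summit, against 42.2% of all genes. The median signal of the 5 was 836. The highest was tapas, which encodes a Tudor protein related to Tej, at 3720, with 1993 in replicate 1 and 1740 in replicate 3. It was followed by squ at 1087, csul, an arginine methyltransferase gene, at 836, and tud at 435. The genes mael, BoYb and SoYb had none within the limit, with the nearest summits 3518, 22777 and 1072 bp away.

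Cluster transcription and export, the role of rhi, had 6 of 10 with a start summit, against 42.2% of all genes. It had the lowest median signal of the roles, 632. The highest were cuff at 973, Nxt1 at 860, thoc5 at 633 and Hel25E at 630, and for cuff and thoc5 another gene's start was nearer. Of the partners of Rhi in its complex, cuff had a start summit and del had none, with the nearest summit 639 bp away. The nearest summit lay 37400 bp from moon. It lay 567 bp from Boot and 548 bp from kipf, which had no start summit either. With a limit of 1000 bp in place of 500 bp, the count over all roles was 35 of 39, against 45.3% of all genes, while that of the 10 members stayed at 6.

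**Figure D4:**
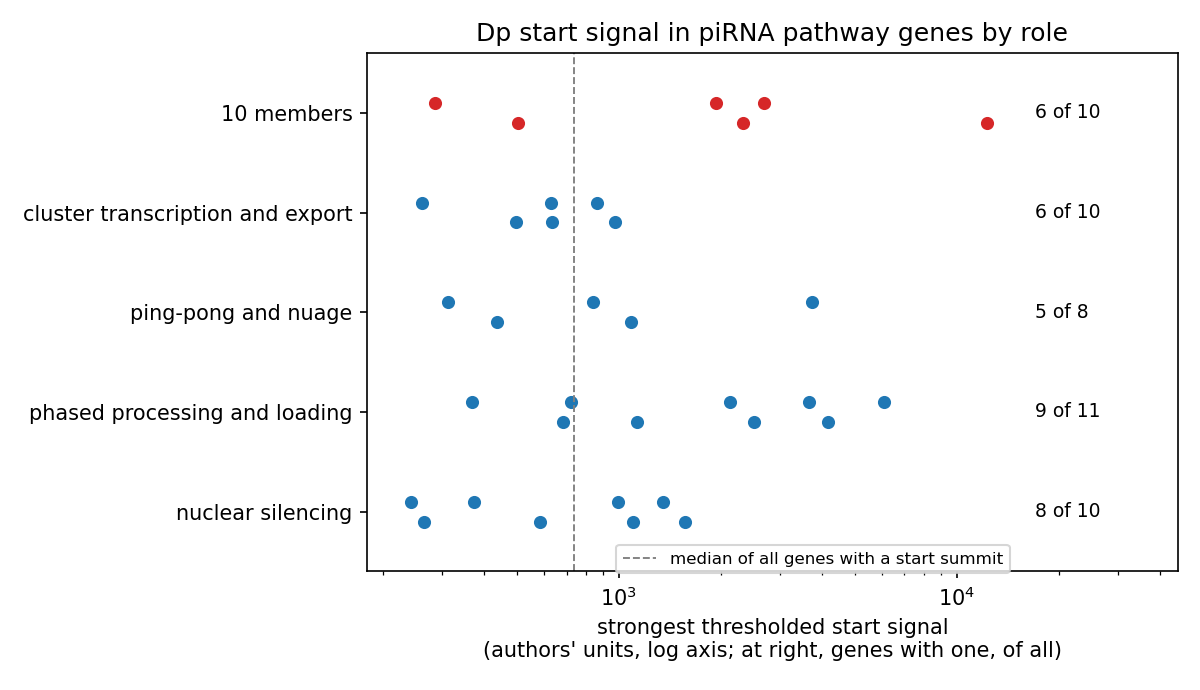
Strongest thresholded start signal (x axis, authors' units, log) of the 10 members (red) and of the other pathway genes by role (blue), each point a gene, with the count of genes that have a start summit at the right. The dashed line is the median of all genes with a start summit, 736; tej at 12251 and shu at 6076 are the highest points, and none of the points for cluster transcription and export lies above 973.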

How the data were processed

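Dp ChIP-seq peaks of 2 replicates of a single group were analysed; fragments were 200 to 800 bp, per the labels. The authors deposited 4 lists on dm6: relaxed peaks of each replicate and of both pooled, and peaks filtered by irreproducible discovery rate (IDR), called the thresholded list here. Per the descriptions deposited with the files, peaks were called on each replicate and on the pool against a separate control. Neither the aligner nor the peak caller is given in the sources used here.

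Peak signal was taken as the authors deposited it, with no stated scale, and was compared only within a list; replicate ratios were set beside the same ratio over all peaks. The −log10 q value, as deposited, was 4.30 throughout the thresholded list, so ranks are by signal. Summit positions come from the offsets deposited by the authors. Read depth is unknown, so no interval for counting error is given. Nothing in the labels says more of the replicates than that they are biological, so the spread between them may be technical.

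Genes and starts came from Ensembl release 115, on the same assembly. Every transcript start was used, and starts of all biotypes were compared for nearness. A replicate's signal at a peak was that of its relaxed peak with the summit nearest, within 500 bp. Motifs were searched on both strands, and the distance of a motif from a summit is to the middle of the motif. No tests were made, since the design has no contrast. Scripts were tested on simulated data and ran in Python 3.11.15 with numpy 2.4.6 and pandas 2.3.3. Coordinates are 1-based.

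All 10 members are named whatever their values. In each other role the text names up to 4 genes with the highest signal and the genes without a start summit where there were 5 or fewer. Some neighbours with a nearer start are named around the members, and none in the other roles. The members, the pathway list and its roles were chosen with earlier results of these data known. The alternatives tried were other distances, lists, assignments, single replicates, motif windows and replicate matching.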

Additional observations from a re-analysis of the deposited data

How the results depend on the processing

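Of 35 alternative values, 31 stayed within 1.5 times the main value or, for replicate ratios, within the spread, and 4 moved. The 31 include the replicate ratios of the 6 members matched by the strongest overlapping peak. These equalled the main ratios at every member, so they add nothing to the stability of the results. The member count of 4 in place of 6, with the 2914 strongest thresholded peaks, stood at the limit of 1.5 times. With the 2914 strongest thresholded peaks, 17 of the 39 other pathway genes had a start summit in place of 28, and 23.9% of all genes in place of 42.2%; the cause lies in the smaller list. Within 50 bp of the summit, 1 member in place of 2 had a DRE and 2 in place of 4 had a CHR, by the narrower window.

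The count of members with a start summit was 4 to 7. It was 5 within 250 bp (without tej), against 37.7% of all genes, and 6 within 1000 bp, against 45.3%. It was 4 with the 2914 strongest peaks (without piwi and vas), against 23.9%, and 7 with the pooled list (with aub), against 60.3%. With nearest starts only it was 5 (without zuc), against 32.6%. Leaving out a replicate gave 5 to 6: vas was lost without replicate 1. Over the other pathway genes, leaving out a replicate gave 27 to 30, and over all genes 40.4% to 42.4%. The own start was nearest, or at vas as near as that of solo, at 5 of 6 members. This held also with starts of protein-coding genes only and with 1 start per gene. The same share over all genes with a start summit was not computed. Nearest starts only took the share of all genes from 42.2% to 32.6%, so most genes with a start summit were kept there as well.

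No paired analysis was possible because there is 1 group and no contrast. Depth is unknown from peak lists, so a gene without a peak is one without a called peak, not one shown to lack Dp.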
